A study of Mus musculus with 16 samples.

Results

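The Hox genes are the 39 protein-coding genes whose mouse symbol is Hoxa, Hoxb, Hoxc or Hoxd followed only by a number. They were taken by symbol from the 57180 genes counted in each library, and all 39 were found: 11 in the Hoxa cluster on chromosome 6, 10 in Hoxb on chromosome 11, 9 in Hoxc on chromosome 15 and 9 in Hoxd on chromosome 2. Their transcripts were counted in 16 poly(A)-selected RNA libraries made from lungs of mouse fetuses on E14.5, in mid-gestation. The design asks how fetal lung expression responds in 2 inbred strains to BMS493, a compound that holds every type of retinoic acid receptor in its repressing state.

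The 4 groups each held 4 libraries. In the B6 control and B6 BMS493 groups the strain was C57BL/6J, and in the A/J control and A/J BMS493 groups it was A/J. Dams were dosed by mouth with BMS493, at 3.75 µg/g/day from E9.5 to E14.5, or with corn oil for the controls, so the fetuses were exposed through the dam. The series' design text gives the fetuses as male, and no group carries a transgene or deletion in the labels. Which fetuses shared a litter is not given in the labels, so the p-values below measure the spread between these libraries, which may include litter mates.

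Hox genes encode homeodomain transcription factors that give cells their position along the head-to-tail axis of the embryo. The genes lie in 4 clusters that arose by duplication, so genes of the same number in different clusters (paralogues) are more alike than neighbours, and low-numbered genes are switched on earliest and farthest forward. Retinoic acid, bound to its receptors, switches on low-numbered Hox genes in the embryo through response elements in and around the clusters, and in developing lung Hox expression is known mainly from the mesenchyme.

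The start regions of 5 members are shown because 4 of them were lower together in BMS493 lungs and the fifth, Hoxb4, was not. They are the 250 bases before the annotated start, from RefSeq on GRCm38.p6, written 5′ to 3′ on the strand of the gene: Hoxa5 at chr6:52204588-52204837, Hoxa6 at chr6:52208673-52208922 and Hoxa7 at chr6:52218574-52218823, all on the minus strand, with Hoxc4 at chr15:103034145-103034394 and Hoxb4 at chr11:96318017-96318266, both on the plus strand. Capitals mark matches, on either strand, to the receptor half-sites AGGTCA and AGTTCA.
Hoxa5: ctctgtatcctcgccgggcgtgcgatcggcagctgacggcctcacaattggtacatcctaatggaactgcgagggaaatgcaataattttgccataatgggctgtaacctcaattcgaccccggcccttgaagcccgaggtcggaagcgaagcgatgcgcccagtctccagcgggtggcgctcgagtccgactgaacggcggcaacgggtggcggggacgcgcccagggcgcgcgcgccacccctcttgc
Hoxa6: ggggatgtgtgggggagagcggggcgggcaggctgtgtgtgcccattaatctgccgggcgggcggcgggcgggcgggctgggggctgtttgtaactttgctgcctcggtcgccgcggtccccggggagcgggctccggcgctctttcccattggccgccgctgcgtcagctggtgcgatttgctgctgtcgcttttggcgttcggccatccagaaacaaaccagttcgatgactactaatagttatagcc
Hoxa7: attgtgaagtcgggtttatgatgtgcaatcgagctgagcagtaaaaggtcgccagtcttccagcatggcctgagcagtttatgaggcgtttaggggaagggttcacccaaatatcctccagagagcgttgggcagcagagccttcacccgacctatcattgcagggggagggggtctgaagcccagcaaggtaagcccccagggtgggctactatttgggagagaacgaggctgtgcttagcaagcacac
Hoxc4: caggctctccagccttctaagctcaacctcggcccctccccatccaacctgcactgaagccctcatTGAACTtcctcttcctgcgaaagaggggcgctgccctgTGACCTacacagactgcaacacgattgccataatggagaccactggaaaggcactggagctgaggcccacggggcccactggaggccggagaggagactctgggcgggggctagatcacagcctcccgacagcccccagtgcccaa
Hoxb4: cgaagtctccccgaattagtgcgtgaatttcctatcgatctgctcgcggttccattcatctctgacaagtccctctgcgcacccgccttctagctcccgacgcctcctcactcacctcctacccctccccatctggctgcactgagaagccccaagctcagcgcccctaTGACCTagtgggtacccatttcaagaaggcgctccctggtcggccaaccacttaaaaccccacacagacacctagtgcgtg

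The windows of Hoxa5, Hoxa6 and Hoxa7 held neither half-site. Hoxc4 held AGGTCA and AGTTCA once each, both on the opposite strand, and Hoxb4 held AGGTCA once, also on the opposite strand. RefSeq windows were matched for 22 of the 39 members, 24 windows in all, and for 9 of the 18 members tested below. AGGTCA was in 6 of the 24 windows and in 14.02% of all 32851 promoter windows of the same length, and AGTTCA was in 2 of 24 and 11.8%. Pairs of AGGTCA in the same direction with 5 or with 2 bases between them, each of which contains the first motif, were in no Hox window and in 3 of the 32851 each. The motif TGATNNAT, bound by HOX proteins together with their PBX partners, was in 4 of 24 Hox windows (Hoxa2, Hoxb1, Hoxb8 and Hoxd11) and in 7.68% of all windows. The windows were rich in G and C, with a median of 58.6% against 52.4% over all windows. These matches describe letters only, and a missing match says no more than that the letters are not in the window.

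Each library had between 15207539 and 24146224 counts assigned to genes, and 17276 genes passed the filter on low counts. The first of the 2 strand-specific columns held 50.95% to 52.05% of the strand-specific counts in each library, so the libraries do not mark strand, and reads from a gene and its antisense partner cannot be told apart. A fragment that fell on exons of 2 genes was counted for neither in the column used. Levels are in CPM, counts scaled to a common library total after TMM normalization, and levels of different genes are compared only per kb of merged exons. Retinoic acid response genes fell in BMS493 lungs: of 6 tested, 5 were called lower in B6, against 0.347% of all genes, and 4 in A/J, against 0.423%, by edgeR's quasi-likelihood test at an adjusted p under 0.05. They include Cyp26b1, which encodes a retinoic acid degrading enzyme, at a log2 fold change of -3.68 ± 0.28 (SE) in B6 and -4.24 ± 0.29 in A/J, and Rarb, a retinoic acid receptor, at -1.02 ± 0.20 and -1.56 ± 0.21.

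E14.5 lung expressed an anterior set of Hox genes. Summed over all 39 members, the level was 439 ± 17.0 CPM (SD, n = 4) in control and 365 ± 50.1 in BMS493 lungs of B6, and 511 ± 20.4 in control and 428 ± 6.34 in BMS493 lungs of A/J. Paralogue groups 1 to 5 made up 83.6%, 83.9%, 80.1% and 80.0% of the Hox level per kb in those 4 groups, and groups 9 to 13 made up 0.297%, 0.208%, 0.135% and 0.200%. Hoxa held 52.3%, 48.1%, 50.8% and 42.4% of the Hox level per kb and Hoxb 46.7%, 51.3%, 47.6% and 56.8%, in the same order of groups, so that Hoxa was the larger in control lungs of both strains. With both strand-specific columns added, Hoxb was the larger in all 4 groups, at 51.1%, 55.7%, 51.7% and 60.9%. Hoxc reached at most 9.64 CPM in any library and Hoxd at most 1.87 CPM.

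Hoxa5 stood highest per length, at 61.7 CPM per kb over the 16 libraries, followed by Hoxb5 at 35.4, Hoxb4 at 18.5 and Hoxb6 at 16.04. Hoxb3 came next at 13.9 CPM per kb, although its count without strand kept only 63.8% of the counts found when both strand-specific columns were added. With both columns added, the order below Hoxb5 turned: Hoxb3 followed it at 20.7 CPM per kb, above Hoxb4 at 17.5, and Hoxb2, at 1.38 in the count without strand, was at 16.8, above Hoxb6 at 15.3. Paralogue group 5, Hoxa5 with Hoxb5 and a little Hoxc5, made up 49.4% to 56.2% of the Hox level per kb as group means. By library, Hoxa2 ran from 6.67 to 12.9 CPM and Hoxb7 from 1.78 to 4.54. At the other end of the tested members, Hoxb9 averaged 0.111 CPM per kb, Hoxd8 0.267 and Hoxc5 0.287. In the plot of levels by library, Hoxa5 was above every other member in each of the 16 libraries.

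**Figure D1:**
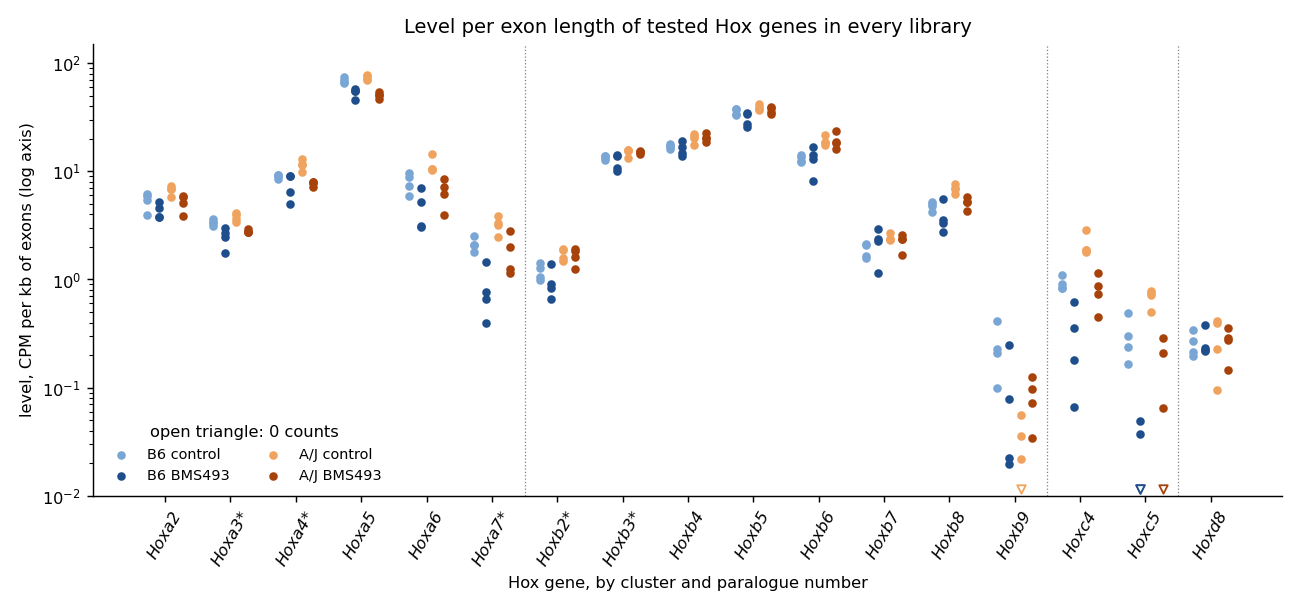
Level of each tested Hox gene shown, in CPM per kb of exons, on a log axis, with 1 point per library and colours for the 4 groups of 4 libraries. Open triangles at the lower edge mark libraries with 0 counts, dotted lines separate the clusters, and asterisks mark members whose counts are reduced by a gene on the opposite strand. Hoxa5 and Hoxb5, at 61.7 and 35.4 CPM per kb on average, stand at the top.

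Of the 39 members, 18 passed the filter, among them Hoxa2 to Hoxa7, Hoxb2 to Hoxb9, Hoxc4, Hoxc5 and Hoxd8. Another 8 had no count in any library (Hoxa11, Hoxc9 to Hoxc13, Hoxd11 and Hoxd12). For these a count of 0 allows up to 0.00925 CPM over all libraries, or 0.124 to 0.197 CPM in a single library, taking 3 counts as the limit. The remaining 13 had a few counts. The largest of them were Hoxd9, with 107 counts in all and 0.0433 to 0.984 CPM per library, Hoxd13 with 52, Hoxa9 with 45, Hoxc6 with 40 and Hoxb1 with 27. Hoxa10, Hoxa13, Hoxb13, Hoxc8, Hoxd1, Hoxd3, Hoxd4 and Hoxd10 had between 1 and 14 counts in all 16 libraries together. Hoxd3 and Hoxd4 share 53.1% and 39.2% of their exon bases with Gm28230 on the same strand in GENCODE M21, and fragments there are counted for neither gene in any column, so their low counts are not a measure of depth alone. Some members passed only through the groups where they are high: Hoxb9 reached the filter's 0.486 CPM in 3 B6 control libraries, 1 B6 BMS493 library and no A/J library, and Hoxc5 in all 4 libraries of each control group but in 0 and 2 of the BMS493 groups. The counts of members below are therefore given beside the background and are not a test of the family.

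Members of the Hoxa and Hoxc clusters were called lower in BMS493 lungs in the edgeR fit used throughout, and none of Hoxb was. Clusters were not tested against each other. Averaged over both strains, 7 of the 18 tested members were called, all lower, against 1.09% of all 17276 genes called lower by the same edgeR test. They were Hoxa3, Hoxa4, Hoxa5, Hoxa6 and Hoxa7, 5 of 7 in Hoxa, and Hoxc4 and Hoxc5, both of those tested in Hoxc. None of 8 Hoxb members was called in that fit, and 2 of them had an unadjusted p under 0.05. Hoxb8 was at -0.39 ± 0.11, near the -0.42 ± 0.10 of Hoxa4, which was called. Some other settings called Hoxb8, among them DESeq2 (adjusted p = 0.0262) and edgeR without a filter on low counts (0.00132). The median log2 fold change was -0.46 over Hoxa, -0.05 over Hoxb and -0.36 over all 18, against 0.00 over all genes tested. In whole lung, fewer cells of a type and less RNA per cell cannot be told apart.

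Hoxa5 (ENSMUSG00000038253.7), without which mice form malformed tracheas and lungs, was the member of highest level. It was the only one called in each strain taken alone in the edgeR fit used throughout. In B6 the control libraries were at 140, 125, 122 and 132 CPM and the BMS493 libraries at 104, 86.3, 108 and 103. In A/J the controls were at 147, 132, 132 and 143 CPM and the BMS493 libraries at 96.0, 101, 87.7 and 94.9. Every BMS493 library was below every control library of either strain. The log2 fold change was -0.38 ± 0.07 (SE; adjusted p = 0.00865, edgeR) in B6 and -0.55 ± 0.07 (adjusted p = 4.15e-05, edgeR) in A/J.

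Hoxa7 had the largest fitted change in its cluster, at -1.09 ± 0.21 averaged over strains (adjusted p = 0.0109, edgeR). In B6 its controls were at 7.27, 5.95, 5.14 and 6.03 CPM and the BMS493 libraries at 4.19, 1.90, 2.20 and 1.15, with no overlap. A/J controls were at 10.996, 9.48, 9.20 and 7.03 CPM and A/J BMS493 libraries at 5.80, 8.09, 3.58 and 3.27, where BMS493 replicate 2 was above control replicate 4. In the edgeR fit used throughout, neither strain's change taken alone was called, at adjusted p = 0.0795 in B6 and 0.438 in A/J. Several other settings called it in B6, with adjusted p = 0.0215 by DESeq2 and, by edgeR, 0.00584 with library numbers as a covariate, 0.0178 with both strand columns added and 8.11e-08 without a filter on low counts. It was also called without B6 BMS493 replicate 1 (0.00211) or A/J BMS493 replicate 2 (0.0231). In A/J the fit without a filter called it.

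For Hoxa6, the neighbour between Hoxa5 and Hoxa7, the average change was -0.80 ± 0.18 (adjusted p = 0.0214, edgeR). B6 controls were at 7.68, 5.12, 6.33 and 8.46 CPM against 6.16, 2.71, 4.54 and 2.64 with BMS493, where replicate 1 overlapped the controls. A/J controls were at 12.6, 9.13, 9.06 and 9.13 CPM against 6.26, 7.39, 3.44 and 5.44, with no overlap. The call was lost without B6 control replicate 1 (adjusted p = 0.0502, edgeR) or replicate 4 (0.0513).

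Hoxa3, needed for thymus and parathyroid formation, and its neighbour Hoxa4 changed by like amounts, -0.43 ± 0.08 (adjusted p = 0.00322, edgeR) and -0.42 ± 0.10 (0.0227) averaged over strains. Hoxa3 was at 21.9, 19.95, 20.6 and 18.7 CPM in B6 controls and 16.1, 14.9, 10.6 and 18.1 in B6 BMS493 lungs. Its A/J libraries were at 24.8, 21.8, 23.9 and 20.3 CPM in controls and 16.7, 16.5, 17.8 and 16.7 with BMS493, and the groups did not overlap in either strain. Hoxa4 was at 14.6, 13.4, 14.4 and 14.7 CPM in B6 controls and 14.3, 7.95, 10.3 and 14.47 in B6 BMS493 lungs, so that replicates 1 and 4 lay among the controls. In A/J it was at 15.6, 18.1, 18.7 and 20.6 CPM in controls and 12.5, 11.4, 12.7 and 12.7 with BMS493, with no overlap. The Hoxa4 call was lost without B6 control replicate 4 (adjusted p = 0.0513, edgeR), A/J control replicate 4 (0.0525) or A/J BMS493 replicate 2 (0.0575). Hoxa2, which patterns the hindbrain and pharyngeal arches, had an average change of -0.33 ± 0.11 and was not called (adjusted p = 0.166, edgeR).

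The Hoxc members had the largest average fold changes of the 18 tested members, at low levels. Hoxc4 (ENSMUSG00000075394.5) was at 2.32, 2.15, 2.82 and 2.16 CPM in B6 controls and at 0.909, 0.169, 1.60 and 0.459 in B6 BMS493 lungs. In A/J it was at 4.77, 4.80, 4.60 and 7.32 CPM in controls and at 2.92, 1.89, 1.16 and 2.22 with BMS493. Within each strain all BMS493 libraries were below all controls, and the average change was -1.53 ± 0.25 (adjusted p = 0.00117, edgeR). Within single strains it was -1.67 ± 0.39 in B6 and -1.38 ± 0.32 in A/J, neither of them called (adjusted p = 0.0650 and 0.0556, edgeR).

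Hoxc5 (ENSMUSG00000022485.4) was at 0.516, 1.53, 0.742 and 0.918 CPM in B6 controls, and in B6 BMS493 lungs at 0.151 and 0.115 in replicates 1 and 4 and at 0 in the other two. That is 76 counts in the 4 controls and 5 in the 4 BMS493 libraries, a 14.6-fold difference after scaling, with an exact binomial 95% interval of 5.98 to 46.2 that covers counting error only. In A/J it was at 2.41, 1.56, 2.32 and 2.21 CPM in controls and at 0.649, 0.880, 0 and 0.201 with BMS493, or 176 against 38 counts and 4.75-fold (3.33 to 6.94). The groups did not overlap in either strain. By edgeR the B6 difference was called (adjusted p = 0.0356), the A/J difference was not (0.0625), and the average was (adjusted p = 0.000757). The B6 call held in 7 of 16 fits that each left out 1 library: it was lost without any one of the 4 B6 controls (adjusted p = 0.0548, 0.172, 0.0721 and 0.0772, edgeR), B6 BMS493 replicate 2, 3 or 4 (0.126, 0.0881 and 0.0673), or A/J control replicate 1 or 4 (0.0527 and 0.0517). A stretch of 166 bases of the Hoxc5 exons is shared with Hoxc10 on the same strand in GENCODE M21.

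**Figure D2:**
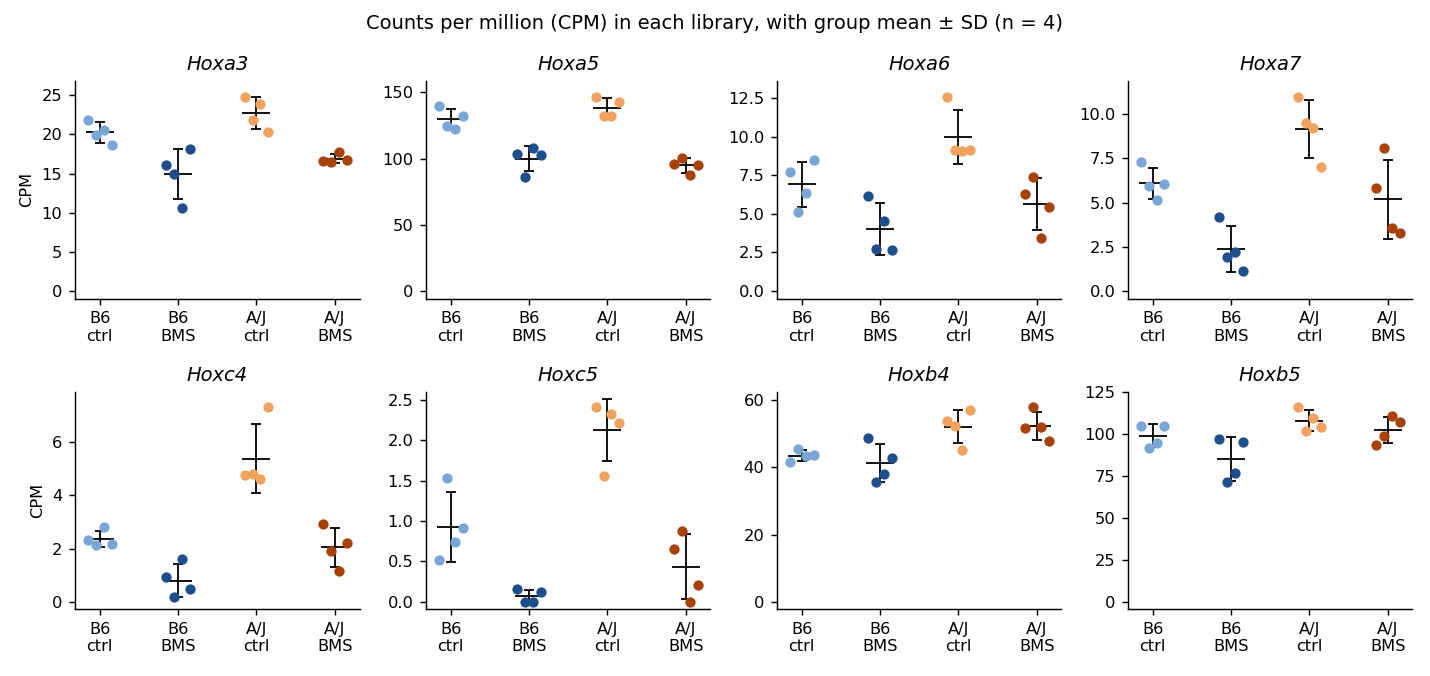
Level in CPM in each of the 16 libraries for 6 members called lower with BMS493 and for Hoxb4 and Hoxb5, which were not, with the 4 groups along the horizontal axis. Points are libraries, the horizontal tick is the group mean and the bar is the SD (n = 4). Hoxa5 falls from 122 CPM or more in controls to 108 or less in BMS493 lungs, while Hoxb4 and Hoxb5 overlap between treated and control lungs of each strain.

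In the edgeR fit used throughout, no Hoxb member was called between BMS493 and control lungs, averaged or within a strain, although after Hoxa5 the members of highest level lie in Hoxb. Hoxb5, whose loss worsens the lung defects of Hoxa5 mutants, was at 104.7, 91.7, 94.5 and 104.9 CPM in B6 controls and 97.1, 71.2, 77.0 and 94.9 in B6 BMS493 lungs. A/J libraries were at 116, 102, 110 and 104 CPM in controls and 93.4, 98.9, 110 and 107 with BMS493. Its average change was -0.15 ± 0.06 (adjusted p = 0.339, edgeR), and the groups overlapped in both strains. For Hoxb4, Hoxb3 and Hoxb6 the average changes were -0.03 ± 0.06, -0.07 ± 0.06 and 0.00 ± 0.11, none of them called. Hoxb8 was the Hoxb member nearest the threshold, at -0.39 ± 0.11 (adjusted p = 0.0800, edgeR). It was called in 4 of 24 other settings, among them DESeq2 (adjusted p = 0.0262), no filter on low counts (0.00132) and the fit without B6 BMS493 replicate 1 (0.000673, and 0.0220 in B6 alone). Hoxd8, the only tested member of its cluster, was at 0.260 to 1.13 CPM with an average change of -0.03 ± 0.29.

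Within single strains few members were called in the edgeR fit used throughout. DESeq2, or edgeR without a filter on low counts, called more, as given in the last section. In B6, 2 of 18 were called, Hoxa5 and Hoxc5, both lower, against 0.347% of all genes called lower. In A/J 1 was, Hoxa5, also lower, against 0.423%. Groups did not overlap, with BMS493 lower, for 5 members in B6 (Hoxa3, Hoxa5, Hoxa7, Hoxc4 and Hoxc5) against 2.63% of all genes. In A/J this held for 7 (Hoxa3, Hoxa4, Hoxa5, Hoxa6, Hoxb8, Hoxc4 and Hoxc5) against 2.84%. Hoxa2 to Hoxa7 each had negative estimates in both strains. The 2 estimates are set side by side in the plot of the BMS493 effect.

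**Figure D3:**
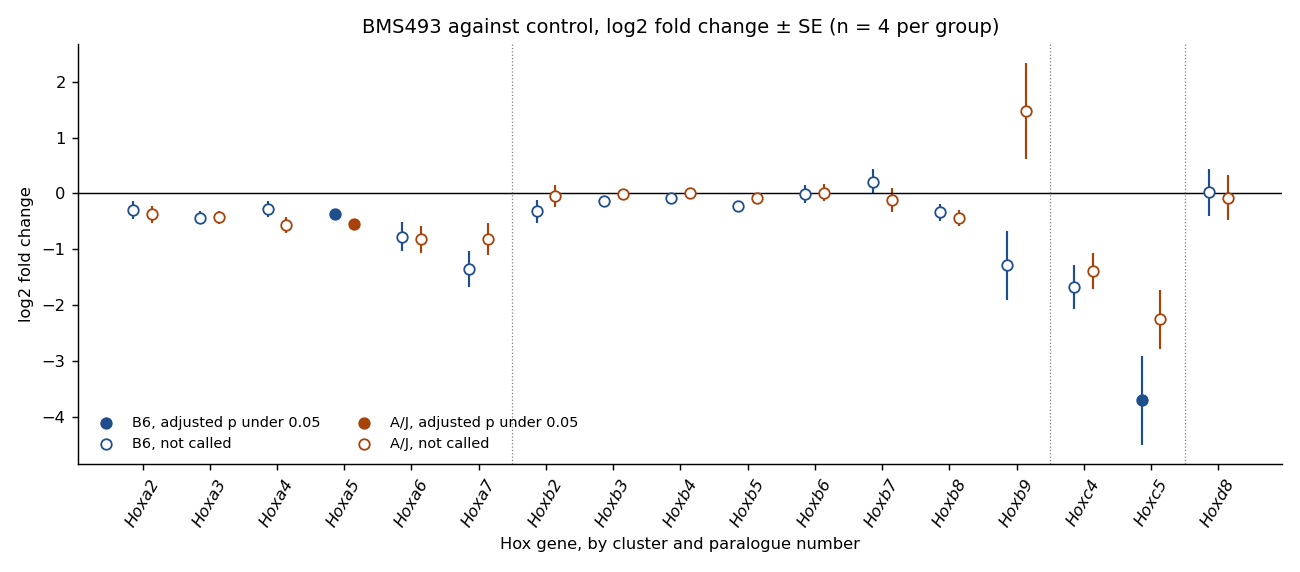
Log2 fold change of BMS493 against control for the tested Hox genes shown, in B6 (blue) and A/J (brown), with bars of 1 SE from the edgeR fit and 4 libraries per group. Filled points have an adjusted p under 0.05, and dotted lines separate the clusters. Hoxa and Hoxc estimates lie below 0 in both strains, while those of Hoxb3 to Hoxb6 lie closer to it. Hoxb8, at -0.34 in B6 and -0.44 in A/J, lies among the Hoxa estimates, and Hoxb9 lies at -1.29 in B6 and 1.47 in A/J.

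The count of calls in single strains rested on few libraries. The B6 count was 0 without B6 control replicate 1, 1 without B6 control replicate 2, 3 or 4, B6 BMS493 replicate 2, or A/J control replicate 1 or 4, and 5 without B6 BMS493 replicate 1. The A/J count was 2 without B6 BMS493 replicate 1 or 4 or A/J BMS493 replicate 1 or 2, and 4 without B6 BMS493 replicate 2 or 3. Hoxa5 itself was called in A/J in all 25 settings tried and in B6 in 23 of 25.

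No member's response was called different between the strains. The test of the difference itself, the BMS493 effect in A/J minus that in B6, called 0 of 18 members by edgeR, against 0.00579% of all genes (1 gene). One member, Hoxb9, had an unadjusted p under 0.05, at a difference of 2.76 ± 1.06 between the log2 fold changes, and its adjusted p was 0.999. For Hoxa5 the difference was -0.17 ± 0.10 and for Hoxc4 0.29 ± 0.50, so differences of this size in either direction were not resolved.

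Each Hoxa gene from 3 to 7, relative to its Hoxb paralogue, had a lower mean ratio with BMS493 than in controls of both strains. These genes are the Hoxa members called lower above, so the ratios restate those calls and are given as a description without a test. No ratio was formed for Hoxa2 and Hoxb2. The ratio of the Hoxa5 to the Hoxb5 level per kb was 1.95 ± 0.0673 (SD, n = 4) in B6 controls and 1.77 ± 0.232 in B6 BMS493 lungs, where 1 library lay above all controls at 2.08. In A/J it was 1.91 ± 0.105 in controls and 1.38 ± 0.166 with BMS493, with no overlap. Of the Hox level per kb, the Hoxa share was 52.3% ± 1.14 (SD, n = 4) in B6 controls, 48.1% ± 2.20 in B6 BMS493 lungs, and 50.8% ± 0.474 without and 42.4% ± 1.94 with BMS493 in A/J. The 4 A/J BMS493 libraries, at 40.2% to 44.5%, lay below the 12 others.

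Control lungs of the 2 strains differed in 5 members, called by edgeR. Hoxb4, Hoxb6, Hoxb8 and Hoxc4 were higher in A/J, 4 of 18 against 7.04% of all genes called higher, and Hoxb9 was lower, 1 of 18 against 9.84% called lower. The median over the 18 was 0.34 on the log2 scale, against 0.01 over all genes. The 2 control groups did not overlap, with A/J higher, for 8 members (Hoxa4, Hoxa6, Hoxb2, Hoxb6, Hoxb7, Hoxb8, Hoxc4 and Hoxc5) against 10.7% of all genes.

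Hoxb8 and Hoxb6 had like differences, 0.52 ± 0.15 (adjusted p = 0.0177, edgeR) and 0.53 ± 0.16 (0.0279). Hoxb8 was at 11.1, 13.2, 13.6 and 12.7 CPM in B6 controls and 18.6, 16.2, 18.04 and 20.1 in A/J controls. With BMS493 it was at 14.7, 7.19, 8.81 and 9.25 CPM in B6 and 15.3, 13.6, 11.3 and 13.6 in A/J. Controls of the 2 strains did not overlap, and the BMS493 groups did, through B6 replicate 1. Hoxb6 was at 28.05, 24.4, 26.4 and 24.1 CPM in B6 controls and 42.1, 34.5, 36.3 and 35.6 in A/J controls. Its BMS493 libraries were at 32.7, 16.03, 25.6 and 27.97 CPM in B6 and 36.1, 31.2, 36.9 and 46.0 in A/J, where B6 replicate 1 exceeded A/J replicate 2. The Hoxb8 call in controls was lost without B6 control replicate 1 (adjusted p = 0.0643, edgeR) or A/J control replicate 4 (0.0591). The Hoxb6 call was lost without B6 control replicate 2, 3 or 4 (0.0770, 0.0577 and 0.0748), B6 BMS493 replicate 3 (0.0546), or A/J control replicate 1 or 4 (0.0741 and 0.0544).

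Hoxb4 was at 41.6, 45.4, 43.5 and 43.7 CPM in B6 controls and 53.8, 52.4, 45.3 and 57.0 in A/J controls, where A/J replicate 3 fell just short of B6 replicate 2. With BMS493 it was at 48.7, 35.6, 38.2 and 42.8 CPM in B6 and 51.9, 57.9, 52.1 and 47.9 in A/J. The strain difference was 0.26 ± 0.09 in controls (adjusted p = 0.0434, edgeR) and 0.35 ± 0.09 with BMS493 (0.00607). The control call held in 7 of 16 fits that each left out 1 library: it was lost without any one of the 4 B6 controls (adjusted p = 0.109, 0.0595, 0.0854 and 0.0858, edgeR), A/J control replicate 1, 2 or 4 (0.0924, 0.0851 and 0.133), or A/J BMS493 replicate 1 or 3 (0.0504 and 0.0532). Hoxc4, whose values stand above, was 1.18 ± 0.32 higher in A/J controls (adjusted p = 0.0122, edgeR), and its A/J control libraries all exceeded those of B6.

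Hoxb9 ran the other way. It was at 0.258, 1.07, 0.544 and 0.590 CPM in B6 controls and at 0.145, 0, 0.0911 and 0.0567 in A/J controls, with no overlap. These are 51 and 6 counts, an 8.97-fold difference after scaling with an exact 95% interval of 3.85 to 25.6 for counting error (adjusted p = 0.00556, edgeR). With BMS493 the B6 libraries were at 0.0505, 0.634, 0.200 and 0.0574 CPM and the A/J libraries at 0.325, 0.0880, 0.186 and 0.252, which overlap. The number of members called between control groups was 3 without any one of the 4 B6 control libraries and 1 without A/J control replicate 4.

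In BMS493 lungs 8 of 18 members were called higher in A/J than in B6 and none lower, against 7.93% of all genes called higher. They were Hoxa7, Hoxb2, Hoxb3, Hoxb4, Hoxb5, Hoxb6, Hoxc4 and Hoxc5. Only Hoxb3 had groups that did not overlap, 1 of 18 against 8.74% of all genes, and its libraries were at 59.1, 45.9, 42.6 and 59.5 CPM in B6 and 65.2, 61.4, 64.6 and 63.7 in A/J. In control lungs Hoxb3 was at 58.8, 58.6, 56.4 and 54.2 CPM in B6 and at 66.7, 66.3, 65.9 and 56.6 in A/J, which overlap through A/J replicate 4. Hoxb3 differed by 0.30 ± 0.09 (adjusted p = 0.0153, edgeR), Hoxb5 by 0.27 ± 0.08 (0.0261) and Hoxa7 by 1.13 ± 0.32 (0.0171). For Hoxc5, with 5 counts in B6 and 38 in A/J, the adjusted p was 0.0365 (edgeR). B6 BMS493 replicate 2 was the lowest of the 16 libraries in Hoxa4, Hoxa5, Hoxb2, Hoxb4 to Hoxb8 and Hoxc4, and B6 BMS493 replicate 3 in Hoxa2, Hoxa3 and Hoxb3. Without B6 BMS493 replicate 2 the count of calls was 4, and without replicate 3 it was 3. Hoxa7, Hoxb3, Hoxb5 and Hoxc5 were lost without either of these. The Hoxb5 call was also lost without A/J BMS493 replicate 3 (adjusted p = 0.0943, edgeR) or 4 (0.0709). Hoxc5 was lost without A/J BMS493 replicate 1 (0.0971) or 2 (0.144), Hoxa7 without replicate 2 (0.0546) and Hoxb6 without replicate 4 (0.0584).

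**Figure D4:**
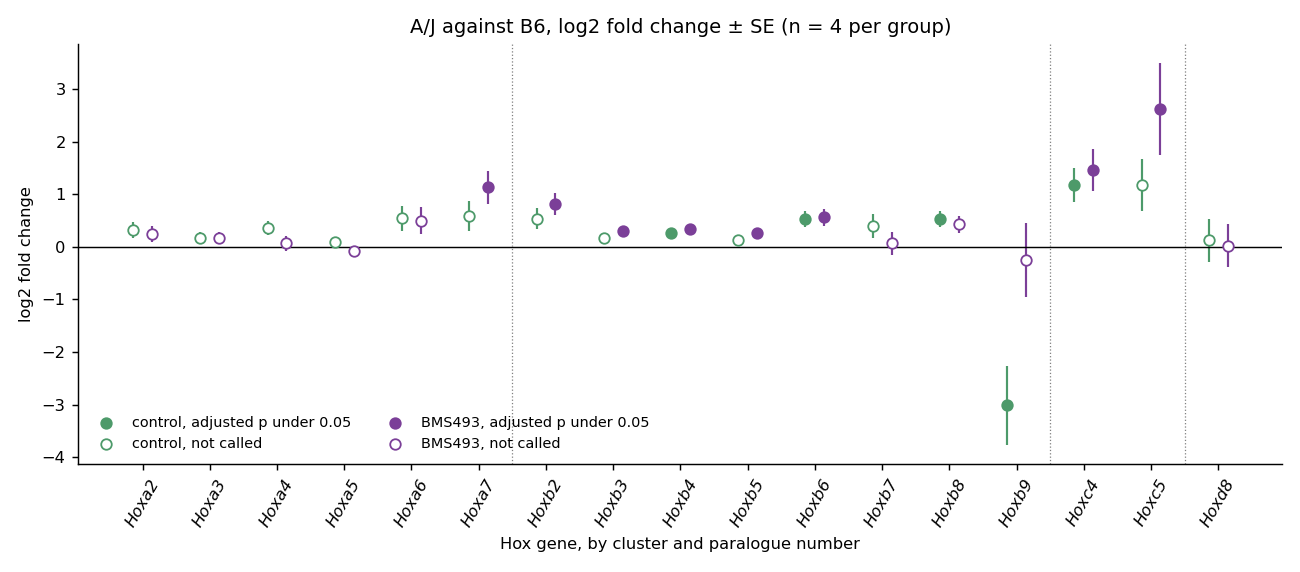
Log2 fold change of A/J against B6 for the tested Hox genes shown, in control lungs (green) and in BMS493 lungs (purple), with bars of 1 SE from the edgeR fit and 4 libraries per group. Filled points have an adjusted p under 0.05, and dotted lines separate the clusters. Most estimates shown lie above 0 in both, and Hoxb9 in control lungs lies lowest, at -3.02.

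The level of some members depended on whether fragments shared with a gene on the opposite strand were counted. Of the counts found by adding both strand-specific columns, where a shared fragment counts for both genes, the column used kept 7.77% for Hoxb2, 61.4% for Hoxa7, 63.8% for Hoxb3, 74.2% for Hoxa3 and 75.2% for Hoxa4. Another 12 tested members kept at least 95%. In GENCODE M21, Hoxb3os, an antisense RNA, covers 27.3% of the Hoxb2 and 52.9% of the Hoxb3 exon bases on the opposite strand. These shares do not follow the order of the losses, and the annotation used for the counts is not given. Hoxa7 shares exon bases with Hoxaas3 and Hoxa4 with Gm29430. Hoxb2 was at 4.43, 3.68, 3.46 and 4.98 CPM in B6 controls, 4.80, 2.33, 3.14 and 2.93 in B6 BMS493 lungs, and in A/J at 5.11, 6.49, 6.74 and 5.50 without and 6.73, 4.36, 5.67 and 6.45 with BMS493. Its strain difference in BMS493 lungs was 0.82 ± 0.20 (adjusted p = 0.00477, edgeR) in this column and 0.37 (adjusted p = 0.0022, edgeR) with both strands added.

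**Figure D5:**
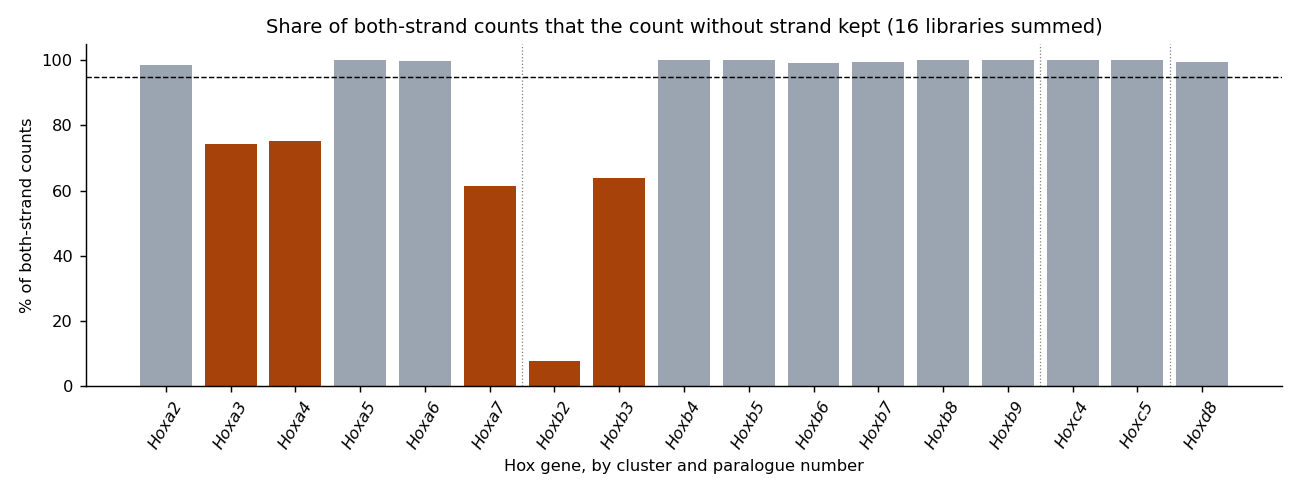
Share, in percent, of the counts found on either strand that the count without strand kept for each tested Hox gene shown, with the 16 libraries summed. The dashed line marks 95%, brown bars are the members below it, and dotted lines separate the clusters. Hoxb2 kept 7.77%.

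Of 15 listed noncoding transcripts of the clusters found in the files, 5 passed the filter and none was called by edgeR with BMS493, with 1 at an unadjusted p under 0.05 in A/J and 0 in B6 or on average. The median of their average effects was -0.33. The listed gene 5730596B20Rik, which overlaps Hoxa3 and is annotated as protein-coding, was at -0.48 (adjusted p = 0.0568, edgeR). Hoxb3os was 0.95 ± 0.19 and Hoxaas3 0.80 ± 0.27 higher in A/J controls (adjusted p = 0.000827 and 0.0390, edgeR), but this column kept 4.99% and 22.2% of their counts. With both strands added the differences were 0.26 ± 0.08 and 0.71 ± 0.16 (adjusted p = 0.0284 and 0.00253, edgeR), and Hoxaas3 was then called lower with BMS493 on average, at -0.74 ± 0.12 (0.000471), and in A/J, at -0.80 ± 0.16 (0.0117). Without strand these counts can hold fragments of the Hox genes they overlap. Hotair and Hottip were at 0 in all libraries.

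HOX proteins bind DNA with partners of the PBX, MEIS and PREP (Pknox) families. All 11 genes on the list of these cofactors were tested. With BMS493, 2 of 11 were called lower averaged over strains, against 1.09% of all genes, among them Meis2 at -0.30 ± 0.07 (adjusted p = 0.0152, edgeR). In A/J alone 1 of 11, not Meis2, was called lower, against 0.423%, and none was called by edgeR in B6 alone. Between control lungs 3 of 11 were higher in A/J, against 7.04% of all genes (Meis1, Pbx2 and Pbx3, by 0.29 ± 0.08, 0.24 ± 0.06 and 0.26 ± 0.08), and 1 of 11 was lower, against 9.84% (Pknox2, at -0.59 ± 0.09). Between BMS493 lungs 2 of 11 were higher in A/J, against 7.93% of all genes (Meis1 and Pbx2, by 0.41 ± 0.08 and 0.37 ± 0.06), and 1 was lower, against 2077 of all 17276 genes (Pknox2, at -0.39 ± 0.09).

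Of 12 trithorax genes and other activators, 0 were called by edgeR in any of the 6 comparisons, with a median average effect of 0.03. Of 19 Polycomb genes, which encode the repressive complexes of silent Hox chromatin, 0 were called with BMS493 in either strain or on average, with a median of -0.01. Between control lungs 5 Polycomb genes were called, Ezh2 and Jarid2 higher in A/J and Cbx6, Cbx7 and Phf19 lower, 5 of 19 against 16.9% of all genes. Between BMS493 lungs 3 were, Cbx2 and Rnf2 higher and Cbx7 lower, against 3447 of all 17276 genes. The 6 ParaHox genes (Cdx, Gsx and Pdx1), which descend with the Hox genes from one ancestral cluster, summed to at most 0.338 CPM in any library. Cdx2, Gsx1 and Gsx2 were at 0 throughout.

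Of 17 tested genes that flank the clusters, 1 was called with BMS493 on average, Skap2 beside Hoxa, at -0.18 ± 0.04 (adjusted p = 0.0391, edgeR), against 1.37% of all genes. None was called by edgeR between control lungs, and 5 were between BMS493 lungs: Cbx1 and Snx11 higher in A/J, Calcoco1, Nfe2 and Snx10 lower, 5 of 17 against 3447 of all 17276 genes.

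Markers of the cell types in lung and around it stand beside these results, and their part in them was not tested. Lung epithelium markers such as Nkx2-1 and Sftpc were all expressed, and 0 of 10 were called with BMS493. Of 12 lung mesenchyme markers, Foxf1 was lower, at -0.33 ± 0.06, and Meox2 higher, at 0.43 ± 0.05, on average over strains. Their summed level was between 6634 and 6926 CPM in control and 5887 and 10686 in BMS493 lungs of B6, and between 4208 and 5496 in control and 5194 and 5652 in BMS493 lungs of A/J. Of 5 smooth muscle markers 3 fell on average over strains (Acta2, Actg2 and Cnn1, at -0.27, -0.32 and -0.29), against 1.09% of all genes called lower, while 1 was called in B6 alone (Actg2) and 0 in A/J alone, with summed levels of 1037 to 1106, 844 to 1035, 834 to 1049 and 801 to 911 CPM in the same order of groups. Of 6 mesothelium markers Upk3b was lower, at -0.38 ± 0.07, and of 7 neural markers Tubb3, at -1.03 ± 0.25. Markers of skeletal muscle and body wall, which also express Hox genes, summed to between 0.165 and 1.01 CPM in each library. On average over strains, 0 of 6 endothelium, 5 cartilage, 3 heart, 3 other foregut and 6 erythroid markers tested were called with BMS493. The heart markers summed to between 4.37 and 34.4 CPM per library, with Nppa at 0 and Myh6 from 0.113 to 19.2, so heart transcripts were present. Between control lungs, where 9.84% of all genes were lower in A/J, the markers lower there were 3 of 12 for mesenchyme (Col1a1, Meox2 and Tcf21), 5 of 6 for endothelium, 2 of 10 for epithelium, 1 of 6 for mesothelium, 1 of 5 for smooth muscle, 2 of 7 for neural cells, 1 of 5 for cartilage (Matn4), 1 of 3 for heart (Tnnt2), 1 of 3 for other foregut (Alb) and 0 of 6 for erythroid cells, and those higher, against 7.04% of all genes, were 1 of 6 mesothelium, 1 of 5 smooth muscle and 2 of 7 neural markers. Between BMS493 lungs, where 2077 of all 17276 genes were lower in A/J, they were 3 of 12, 6 of 6, 4 of 10, 3 of 6, 1 of 5, 2 of 7, 1 of 5 (Matn4), 0 of 3, 0 of 3 and 0 of 6 in the same order, and 2 of 12 mesenchyme (Osr1 and Pdgfra), 2 of 6 mesothelium, 1 of 5 smooth muscle and 3 of 7 neural markers were higher, against 7.93% of all genes. The mean summed level of the mesenchyme list was 6762 CPM in B6 and 4995 in A/J control lungs, a sum in which abundant genes weigh most. The median log2 difference over its 12 markers, A/J against B6, was -0.05 in control and 0.02 in BMS493 lungs.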

How the data were processed

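Messenger RNA was purified with poly-T beads and copied with random primers, per the labels' protocols. FastQC, cutadapt, STAR and the genome build GRCm39, which derives from C57BL/6J, are named in the submitters' processing notes, while versions and the annotation are not given in the sources used here. The authors deposited raw counts per gene for each library in 3 columns, 1 without strand and 1 for each strand. The column without strand was used. Lines that are not genes held 23.1% to 28.3% of fragments and were left out. Of 57180 gene IDs, 51884 matched GENCODE M21 (98.9% of counts), which gave symbols, chromosomes and exon lengths on GRCm38, so no coordinates of genes are printed and promoter windows carry their own build.

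All genes were fitted with edgeR 4.0.16 (R 4.3.3): filterByExpr, TMM scaling, 1 coefficient per group over the 16 libraries, robust glmQLFit, glmQLFTest, Benjamini-Hochberg adjustment over 17276 genes, and calls at an adjusted p under 0.05. Levels are TMM-scaled CPM over the genes tested. The fit was tested on simulated data. Alternatives were DESeq2 1.42.0, RLE scaling, other filters, other columns, a replicate block, library numbers as a covariate, only the libraries compared, and leaving out each library. Members called in any comparison and the 5 of highest level per length are given with every library's value, the others by range and counts, and listed genes by counts with those called named. The members and lists were chosen with earlier results of these data known. Members named because their groups do not overlap were picked after their values were seen. Results for some genes are not reported here.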

Additional observations from a re-analysis of the deposited data

Results flagged for a closer look

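In 5 of the 72 sets of 4 libraries (18 tested members in 4 groups), 1 library stood apart from the others of its group: its gap to the nearest library, divided by the group's range, was above Dixon's 95% critical value. Chance flags about 1 in 20 such sets. Hoxa3 was high in A/J BMS493 replicate 3, where it reached 17.8 against 16.5 to 16.7 CPM (ratio 0.863). Hoxa6 was high in A/J control replicate 1, at 12.6 against 9.06 to 9.13 CPM (0.980). Hoxb3 was low in A/J control replicate 4, at 56.6 against 65.9 to 66.7 CPM (0.917). Hoxc4 was high in A/J control replicate 4, at 7.32 against 4.60 to 4.80 CPM (0.925), and without that library its strain difference in controls was not called by edgeR (adjusted p = 0.0552). Hoxd8 was high in B6 BMS493 replicate 4, at 1.03 against 0.601 to 0.634 CPM (0.923).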

How the results depend on the processing

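No call changed sign in any setting tried. Averaged over strains, 5 to 8 members were called as each library was left out, and Hoxa3, Hoxa5, Hoxa7, Hoxc4 and Hoxc5 were called in every setting that gave them a value. The strain difference of the BMS493 effect gave 0 calls throughout. As libraries were left out in turn, calls with BMS493 ran from 0 to 5 in B6 and 1 to 4 in A/J, and calls between strains from 1 to 7 in controls and 3 to 10 in BMS493 lungs. DESeq2 gave 5 calls with BMS493 in B6 and 5 in A/J. Without a filter on low counts there were 6, 7 and, between control strains, 10. A mean of at least 1 CPM gave 1 in B6, where Hoxc5, at a mean of 0.888 CPM, was not fitted. The first strand-specific column gave 1 in B6 and 4 in A/J, both columns added gave 3 in A/J, and library numbers 1 to 8 against 9 to 16 as a covariate gave 2 in A/J. With only the 8 libraries compared, there were 1 in B6, 5 in A/J, 9 between control strains and 2 between BMS493 strains. The cause of the other shifts was not tested, except that this last setting estimates the spread from fewer libraries. Replicate numbers showed no clear pairing of libraries, which was not tested. Over 24 pairs with the same number, correlations of deviations had a mean of 0.00334, against -0.00111 over other pairs. The 24 ran from -0.147 to 0.148, 3 of them over 0.1, and 7 of 16 libraries correlated best with their own number. The replicate block gave 2 calls in A/J and left Hoxc5 in B6 at an adjusted p of 0.0518 (edgeR). It added calls of Hoxa7 in B6 (0.00437), Hoxa4 in A/J, Hoxb8 averaged over strains (0.0486) and between BMS493 strains (0.0382), and Hoxb2 between control strains (0.0489), and changed no other call of a member. Adding both strand columns moved the summed Hox level of the 4 groups from 439, 365, 511 and 428 CPM to 514, 431, 600 and 511. Depth limits Hoxc5, Hoxb9 and the 21 members not tested, of which some also share exons with other genes.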
